A study of Equus caballus with 10 samples.

Results

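FKBP6, PLCZ1, SPATA1, ACE and INHBA are 5 genes that have been studied as candidates for male fertility in horses, and their transcripts were followed in ejaculated sperm of low- and high-fertility stallions. They were taken as the probe sets that the platform annotation assigns to exactly 1 gene symbol, with that symbol being one of the 5. All 5 were measured, each by 1 probe set, out of 16661 genes with such a probe set and 30559 probe sets in all. The rule that finds their probe sets uses gene names, while the 5 genes themselves were chosen with earlier results of these data known.

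The series holds 1 Affymetrix array for each of 10 warmblood stallions (Equus caballus) of breeding age that were kept at an insemination centre, with RNA from 4 ejaculates per stallion, all from the breeding season per the labels. The groups were autumn with low fertility (stallions 5 and 6), autumn with high fertility (stallions 1 and 2), spring with low fertility (stallions 7, 8 and 10) and spring with high fertility (stallions 3, 4 and 9). The labels do not state how fertility was graded. Each array is a different animal, so the spread within a group is the spread between stallions and their handling together. Stallion 9 carries the season field spring but a title that starts like those of the autumn stallions. It was kept in spring, and each difference was also computed with it in autumn.

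The genes act at different steps of reproduction. FKBP6 is an immunophilin-like protein of meiotic germ cells, and male mice without it do not complete meiosis. SPATA1 is a spermatogenesis-associated protein that has been placed at the developing acrosome. ACE, the angiotensin-converting enzyme, has a germ cell form carried on the sperm surface, and male mice without that form are poorly fertile. PLCZ1 is the sperm-borne phospholipase C that starts calcium oscillations in the egg at fertilisation. INHBA encodes the beta A subunit of activin A and inhibin A, hormones made largely by somatic cells of the gonads, with inhibin restraining follicle-stimulating hormone. Mature sperm are transcriptionally quiet, so their RNA is largely left over from earlier germ cell stages.

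Values are log2 signals as deposited, on which 1 unit is a doubling and no value lies below 4. Array medians ran from 5.07 to 5.49. Probe sets bind their targets with different strength, so the levels of different genes were not compared. The 13 measured sperm markers (such as PRM1, TNP1 and ODF1) averaged 9.03 to 11.32 per array. Those of leukocytes (12 measured) averaged 5.17 to 5.68, of epithelium (7 measured) 5.15 to 5.66, of Sertoli and Leydig cells (13 measured) 5.29 to 5.78, and of stroma and endothelium (10 measured) 5.38 to 5.83. These list means come from different probe sets and are given as a description of the arrays, not as a comparison of levels between lists. Stallions 2, 9 and 10 stood apart, with array medians of 5.10, 5.07 and 5.08 against at least 5.24 on the rest, and with sperm marker means of 9.15, 9.53 and 9.03 against at least 10.28 on the rest.

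Of the leukocyte markers, 3 had separate classes in autumn, none passing the adjusted threshold. S100A9, a calcium-binding protein of neutrophils and monocytes, stood at 8.19 to 8.24 in autumn low-fertility stallions, against 5.42 to 6.23 in autumn high-fertility stallions, a difference of 2.39 (SE 0.58, unadjusted p = 0.00265, limma adjusted p = 1). S100A8, on the same list and with a mean of 4.50 where no value lies below 4, differed by -0.03 (SE 0.36) in autumn. Of the 12 leukocyte markers, 2 (S100A9 and ITGAM) were higher in autumn low-fertility stallions without overlap and 1 (TYROBP) was lower, with a median difference of 0.01 over the list. TYROBP differed by -0.91 (SE 0.28, unadjusted p = 0.0104, limma adjusted p = 1) and ITGAM by 0.64 (SE 0.31). In spring 0 were higher and 1 (FCER1G) was lower without overlap, with a median of 0.01. Of all probe sets, 18.1% were higher and 10.6% lower without overlap in autumn, and 4.19% and 2.52% in spring. The leukocyte markers named here were chosen after their values were seen, and the part of other cells in the differences of the 5 genes was not tested.

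None of the 5 genes differed between low- and high-fertility stallions in autumn or in spring beyond the spread between animals. The groups overlapped for each gene in each season, and 0 of 5 passed an adjusted p of 0.05 in limma. Over all probe sets, the share past this threshold was 0.00327% in autumn (1 probe set, not a member), 0% in spring, 0.00327% for the average of both seasons and 0.00327% for the interaction, which is the spring difference minus the autumn difference. At an unadjusted p under 0.05, 0 of 5 members were found in any of the 4 comparisons, against 4.24% of all probe sets in autumn, 2.24% in spring, 2.59% for the average and 3.79% for the interaction. The members do not stand out from that background. In autumn 18.1% of all probe sets had both low-fertility stallions above both high-fertility stallions and 10.6% had them below, against 0 of 5 members either way. In spring the shares were 4.19% and 2.52%, again against 0 of 5 members.

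**Figure D1:**
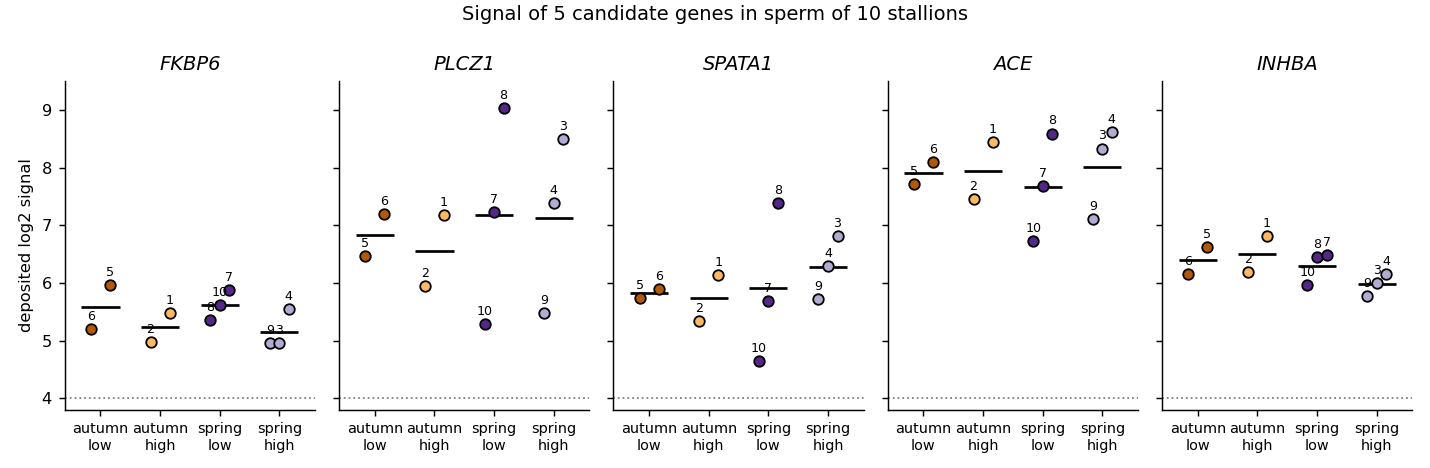
Deposited log2 signal of each candidate gene on each array, grouped by season and fertility class. Points are stallions with their number, bars are group means and the dotted line is the floor of 4. Low- and high-fertility stallions overlap in every panel and season, and PLCZ1 spans 5.29 to 9.03 within the spring low-fertility group alone.

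FKBP6 averaged more in low than in high fertility in both seasons, without passing the test in either. In autumn it stood at 5.96 and 5.20 in low-fertility stallions 5 and 6, against 5.48 and 4.98 in high-fertility stallions 1 and 2. In spring it stood at 5.88, 5.36 and 5.61 in low-fertility stallions 7, 8 and 10, against 4.96, 5.55 and 4.95 in high-fertility stallions 3, 4 and 9. Stallion 6 lay below stallion 1 and stallion 8 below stallion 4, so the groups overlapped in both seasons. The difference, low minus high, was 0.35 in autumn (SE 0.35, 95% interval -0.44 to 1.14, limma adjusted p = 1) and 0.46 in spring (SE 0.28, -0.18 to 1.11, limma adjusted p = 1). Averaged over the seasons it was 0.41 (SE 0.22, -0.10 to 0.91), with p = 0.133 in an exact two-sided permutation test within seasons, whose smallest possible p is 0.0167. Of all probe sets, 9.71% had a larger average difference in size. The 4 group means ran in the order spring low 5.62 ± 0.26 (SD, n = 3), autumn low 5.58 ± 0.54 (n = 2), autumn high 5.23 ± 0.35 (n = 2) and spring high 5.15 ± 0.34 (n = 3), and neighbours in this order overlapped. Relative to the array median FKBP6 ran from -0.31 in stallion 3 to 0.59 in stallion 7, so its signal was near that of the median probe set on every array. Without stallion 5 the autumn difference was -0.03.

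SPATA1 varied more between stallions of 1 group than between the groups. In autumn it stood at 5.74 and 5.90 in low-fertility stallions 5 and 6, against 6.14 and 5.34 in high-fertility stallions 1 and 2. In spring it stood at 5.69, 7.38 and 4.65 in low-fertility stallions 7, 8 and 10, against 6.82, 6.29 and 5.72 in high-fertility stallions 3, 4 and 9. The spring low-fertility group held both the highest and the lowest value of all 10 arrays. The autumn low-fertility values lay inside the range of the autumn high-fertility ones. The difference was 0.08 in autumn (SE 0.75, 95% interval -1.62 to 1.78) and -0.37 in spring (SE 0.61, -1.76 to 1.02), both with limma adjusted p = 1. Without stallion 10 the spring difference was 0.26 and without stallion 2 the autumn difference was -0.32, so each sign rested on 1 array. Group means ran in the order spring high 6.28 ± 0.55 (SD, n = 3), spring low 5.91 ± 1.38 (n = 3), autumn low 5.82 ± 0.11 (n = 2) and autumn high 5.74 ± 0.57 (n = 2), with neighbours overlapping.

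ACE had nearly equal means in autumn and a lower mean in low-fertility stallions in spring, neither passing the test. In autumn it stood at 7.72 and 8.09 in low-fertility stallions 5 and 6, against 8.44 and 7.45 in high-fertility stallions 1 and 2. In spring it stood at 7.68, 8.59 and 6.72 in low-fertility stallions 7, 8 and 10, against 8.33, 8.62 and 7.10 in high-fertility stallions 3, 4 and 9. Stallion 8 of low fertility lay just under stallion 4, the highest of high fertility, and stallion 10 had the lowest value of the series. The difference was -0.04 in autumn (SE 0.66, 95% interval -1.54 to 1.46) and -0.35 in spring (SE 0.54, -1.57 to 0.87), both with limma adjusted p = 1. Without stallion 10 the spring difference was 0.12, and the autumn difference was 0.45 without stallion 1, 0.15 without stallion 5 and 0.24 with stallion 9 in autumn. Group means ran in the order spring high 8.02 ± 0.81 (SD, n = 3), autumn high 7.94 ± 0.70 (n = 2), autumn low 7.90 ± 0.26 (n = 2) and spring low 7.66 ± 0.94 (n = 3), again with neighbours overlapping. Whether the probe set reads the germ cell form, the somatic form or both is not stated in the annotation.

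PLCZ1 had the widest spread of the 5 genes. In autumn it stood at 6.47 and 7.20 in low-fertility stallions 5 and 6, against 7.17 and 5.94 in high-fertility stallions 1 and 2. In spring it stood at 7.23, 9.03 and 5.29 in low-fertility stallions 7, 8 and 10, against 8.50, 7.38 and 5.48 in high-fertility stallions 3, 4 and 9. Each spring group thus held one array near the top of the series and one near its bottom. The difference was 0.28 in autumn (SE 1.20, 95% interval -2.45 to 3.01) and 0.06 in spring (SE 0.98, -2.16 to 2.29), both with limma adjusted p = 1. Both intervals reach past 2 log2 units in either direction, so a moderate change was not detectable at this number of arrays. Its sign turned with single arrays, to -0.34 in autumn without stallion 2, -0.08 in autumn without stallion 6, -0.86 in spring without stallion 8 and -0.76 in spring without stallion 9. Group means ran in the order spring low 7.18 ± 1.87 (SD, n = 3), spring high 7.12 ± 1.53 (n = 3), autumn low 6.84 ± 0.52 (n = 2) and autumn high 6.56 ± 0.87 (n = 2), with neighbours overlapping.

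INHBA varied little, and its groups overlapped in both seasons. In autumn it stood at 6.63 and 6.15 in low-fertility stallions 5 and 6, against 6.81 and 6.19 in high-fertility stallions 1 and 2. In spring it stood at 6.48, 6.45 and 5.97 in low-fertility stallions 7, 8 and 10, against 5.99, 6.15 and 5.78 in high-fertility stallions 3, 4 and 9. In spring 2 of the low-fertility stallions lay above all high-fertility ones, while stallion 10 lay below stallions 3 and 4. The difference was -0.11 in autumn (SE 0.31, 95% interval -0.80 to 0.58) and 0.33 in spring (SE 0.25, -0.24 to 0.89), both with limma adjusted p = 1. The autumn sign rested on single arrays, since the difference was 0.20 without stallion 1, 0.13 without stallion 6 and 0.13 with stallion 9 in autumn. The seasons were not shown to differ, since the interaction was 0.44 (SE 0.39, -0.46 to 1.33, limma adjusted p = 1). Group means ran in the order autumn high 6.50 ± 0.44 (SD, n = 2), autumn low 6.39 ± 0.34 (n = 2), spring low 6.30 ± 0.29 (n = 3) and spring high 5.97 ± 0.19 (n = 3), and neighbours in this order overlapped.

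For the 4 genes other than INHBA the interaction was also small against its error. It was 0.11 (SE 0.45) for FKBP6, -0.45 (SE 0.97) for SPATA1, -0.31 (SE 0.85) for ACE and -0.22 (SE 1.55) for PLCZ1, each with limma adjusted p = 1. Averaged over the seasons, the difference was -0.14 (SE 0.48) for SPATA1, -0.20 (SE 0.43) for ACE, 0.17 (SE 0.78) for PLCZ1 and 0.11 (SE 0.20) for INHBA. Exact permutation tests within seasons gave these averages p = 0.767, 0.633, 0.800 and 0.600 in that order. Within a single season the exact permutation test cannot go below 0.333 in autumn (2 against 2) or 0.100 in spring (3 against 3), and over the 5 genes it gave at least 0.667 in autumn and at least 0.200 in spring.

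**Figure D2:**
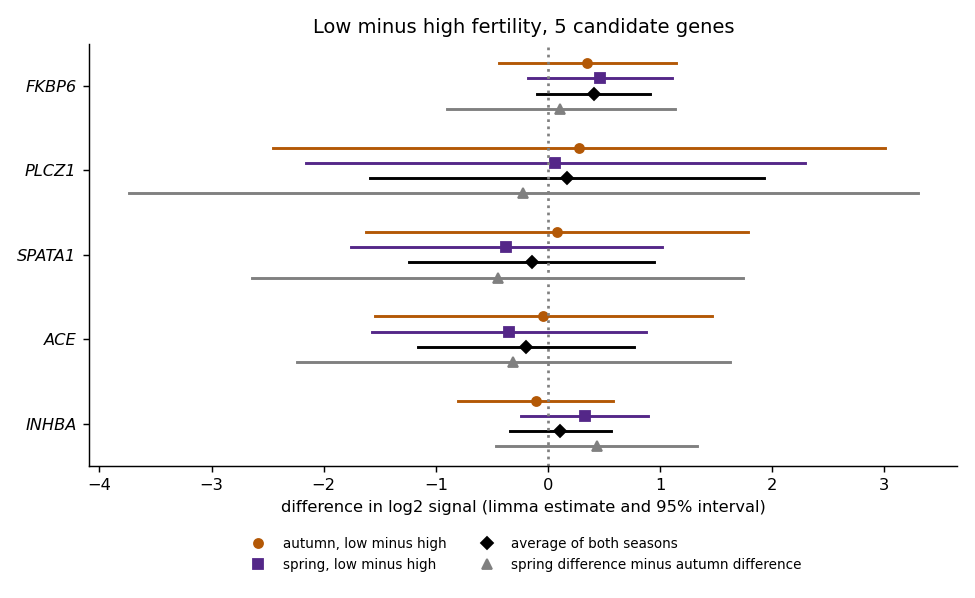
Low minus high difference in log2 signal for each candidate gene, from limma, in autumn, in spring and averaged, with the spring difference minus the autumn difference as triangles. Bars are 95% intervals, and all 20 of them cross 0. The intervals of FKBP6 and INHBA are the narrowest and those of PLCZ1 the widest.

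The 5 genes fell into wide and narrow spreads between stallions. Across the 10 arrays PLCZ1 spanned 3.74 log2 units (13.4-fold) with an SD of 1.21, SPATA1 2.73 units (6.63-fold) with an SD of 0.76, and ACE 1.90 units (3.73-fold) with an SD of 0.65. FKBP6 spanned 1.01 units (2.01-fold) with an SD of 0.37, and INHBA 1.03 units (2.04-fold) with an SD of 0.32. Of all probe sets, 0.654% had a larger SD than PLCZ1, 7.23% than SPATA1 and 11.7% than ACE, against 44.9% for FKBP6 and 55.9% for INHBA. These SDs include differences in the arrays as a whole.

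The stallions at the extremes were shared. Stallion 8 (spring, low fertility) had the highest signal of PLCZ1 and SPATA1, and the next to highest of ACE. Stallion 10 (spring, low fertility) had the lowest signal of PLCZ1, SPATA1 and ACE. On the arrays of stallions 2, 9 and 10, PLCZ1 stood at 5.29 to 5.94, against 6.47 to 9.03 on the other 7 arrays, and ACE at 6.72 to 7.45, against 7.68 to 8.62. SPATA1 overlapped slightly, at 4.65 to 5.72 against 5.69 to 7.38. FKBP6 overlapped widely, at 4.95 to 5.61 against 4.96 to 5.96. INHBA overlapped through stallion 2 (6.19), while stallions 9 and 10 (5.78 and 5.97) lay below the other 7 arrays (5.99 to 6.81). In RNA pooled over many sperm, fewer cells carrying a transcript and less of it per cell cannot be told apart.

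PLCZ1 and SPATA1 went up and down with the sperm markers by Pearson r, while the same relation of ACE did not pass the adjusted threshold. By rank (rho) only that of SPATA1 passed. Whether ACE differs from PLCZ1 and SPATA1 in this was not tested. Because 3 arrays stood apart, correlations were computed over the other 7 stallions, for the 10 pairs of genes and for each gene against the sperm marker mean, 15 relations in all, with exact permutation tests. SPATA1 followed the marker mean with r = 0.96 (p = 0.000794, Benjamini-Hochberg adjusted p = 0.0119) and rho = 0.96 (p = 0.00278, adjusted 0.0417), and with r = 0.85 when stallions 8 and 3 were left out. PLCZ1 followed it with r = 0.91 (exact p = 0.00456, adjusted 0.0228) and rho = 0.79 (p = 0.048, adjusted 0.199), but with r = 0.51 without stallions 8 and 3. ACE had r = 0.77 (exact p = 0.0516, adjusted 0.172) and rho = 0.75 (p = 0.0663, adjusted 0.199), and r = 0.41 without stallions 7 and 5. PLCZ1 and SPATA1 followed each other with r = 0.95 (exact p = 0.00377, adjusted 0.0228) and rho = 0.75 (p = 0.0663, adjusted 0.199), but with r = 0.55 without stallions 8 and 3, so this relation rested in part on those 2 arrays. FKBP6 and INHBA had negative coefficients with the marker mean, r = -0.72 (exact p = 0.0716, adjusted 0.179; rho = -0.71, p = 0.0881, adjusted 0.214) and r = -0.52 (exact p = 0.23, adjusted 0.288; rho = -0.63, p = 0.143, adjusted 0.214). Without the 2 farthest stallions they were -0.55 and -0.30. The remaining 9 pairs of genes had r between -0.66 and 0.74 with adjusted p of at least 0.172. Among them SPATA1 and ACE had r = 0.74 (exact p = 0.0573, adjusted 0.172) and rho = 0.82 (p = 0.0341, adjusted 0.199). Their r was 0.99 over the 5 arrays left without stallions 8 and 3. All of these values share the array and its overall level. With each array centred on its median, r with the marker mean over these 7 stallions was 0.94 for SPATA1, 0.92 for PLCZ1 and 0.78 for ACE. It was -0.81 for FKBP6 and -0.67 for INHBA. Over all 10 stallions the centred r was 0.87, 0.93, 0.88, -0.35 and -0.11, in that order.

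**Figure D3:**
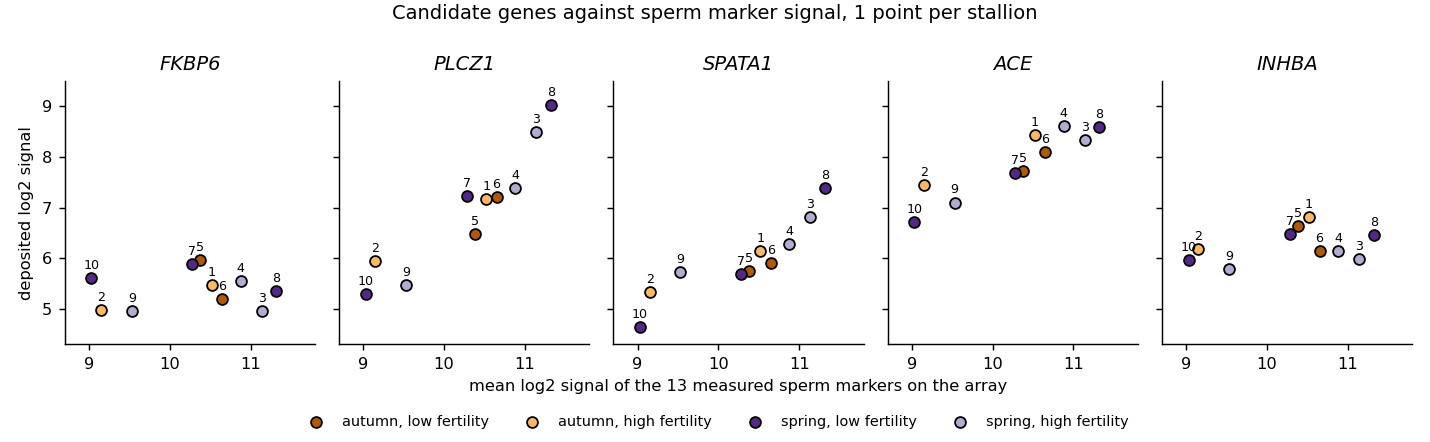
Log2 signal of each candidate gene against the mean log2 signal of 13 sperm markers on the same array, 1 numbered point per stallion, coloured by season and fertility class. PLCZ1, SPATA1 and ACE are higher where the markers are higher, while FKBP6 shows no such rise. INHBA is lowest in stallions 9 and 10 but does not rise with the markers among the 7 stallions other than 2, 9 and 10. Stallions 2, 9 and 10 form a separate set with marker means of at most 9.53.

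The sperm marker mean was 10.38 and 10.65 in autumn low-fertility stallions, against 10.52 and 9.15 in autumn high-fertility stallions. It was 10.28, 11.32 and 9.03 in spring low-fertility stallions, against 11.14, 10.88 and 9.53 in spring high-fertility stallions. With this mean as a covariate, an alternative chosen after seeing the data, the difference of ACE was -0.60 in autumn (SE 0.25, limma adjusted p = 0.745) and -0.10 in spring (SE 0.20). That of PLCZ1 was -0.77 in autumn (SE 0.36, limma adjusted p = 0.806) and 0.53 in spring (SE 0.29), and that of SPATA1 was -0.53 (SE 0.35) and -0.10 (SE 0.27). FKBP6, at 0.32 and 0.48, and INHBA, at -0.27 and 0.40, kept their signs. The autumn signs of PLCZ1 and SPATA1 turned, and 0 of 5 genes passed.

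The genes with the pattern most like each candidate were taken as the 3 with the highest Pearson r over the 10 arrays, among 9219 other genes with a range of at least 1 log2 unit. These coefficients describe 10 arrays that share depth and level, and they carry no test. For PLCZ1 they were GLRX2, a mitochondrial glutaredoxin, at r = 0.997, C10H6orf163 at 0.99 and EIF3J, a translation initiation factor subunit, at 0.99. GLRX2 stood at 8.28 in stallion 8 and 6.20 in stallion 10, the same extremes as PLCZ1. Over the 7 arrays without stallions 2, 9 and 10 these r were 0.99, 0.98 and 0.97. For SPATA1 they were C8H18orf54 at 0.98, the kinase gene CDKL3 at 0.97 and LOC100050470 at 0.97. For ACE they were GARIN2 at 0.98, POLB, the DNA repair polymerase beta, at 0.98 and the kinesin gene KIF27 at 0.98. All 9 of these genes had their lowest signal in stallion 10 and their highest in stallion 8.

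FKBP6 and INHBA had other companions. For FKBP6 they were MILR1, an immunoglobulin-like receptor of mast cells, at r = 0.98, SH3BGRL2 at 0.93 and FSTL1, a secreted follistatin-like protein, at 0.92. MILR1 stood at 5.85 and 5.15 in autumn low-fertility stallions, against 5.42 and 4.97 in autumn high-fertility stallions, and at 5.67, 5.26 and 5.38 in spring low-fertility stallions, against 4.96, 5.33 and 4.85 in spring high-fertility stallions. Like FKBP6, it overlapped between the classes in both seasons, with differences of 0.31 and 0.39. For INHBA they were LOC100052951 at 0.96, LOC100034237 at 0.95 and LRRC8A, a volume-regulated anion channel subunit, at 0.95. An r over 0.9 was shared with 4.82% of the 9219 genes for PLCZ1, 3.85% for ACE and 3.07% for SPATA1, against 0.0542% for FKBP6 and 0.228% for INHBA.

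Around the candidates, 159 measured genes of 8 lists were examined, and 0 passed the adjusted threshold in limma in either season. At an unadjusted p under 0.05 there were 8 in autumn (5.03%, against 4.24% of all probe sets) and 3 in spring (1.89%, against 2.24%). In autumn both low-fertility stallions lay above both high-fertility stallions for 44 of the 159 (27.7%, against 18.1% of all probe sets) and below them for 10 (6.29%, against 10.6%). In spring the counts were 7 higher (4.40%, against 4.19%) and 7 lower (4.40%, against 2.52%). The median difference over these genes was 0.17 in autumn and -0.04 in spring, against 0.08 and 0.0167 over all probe sets. The sperm markers differed by a median of 0.78 in autumn, with 12 of 13 higher in low fertility (60.6% of all probe sets). In spring they differed by a median of -0.41, with 1 of 13 higher (52.8% of all probe sets). Without stallions 2, 9 and 10 the sperm marker medians were -0.02 and -0.21, against -0.05 and 0.02 over all probe sets. In autumn this leaves stallion 1 as the only high-fertility array. The list medians below without these stallions read against the same values. How far the sperm marker signal contributes to the differences of the listed genes was not tested.

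Around FKBP6, the list of synaptonemal complex and piRNA pathway genes, which pair meiotic chromosomes and silence transposons, had 27 of 30 genes measured. In autumn 12 of them were higher in low fertility without overlap and 1 lower, where 18.1% and 10.6% of all probe sets were, with a median difference of 0.24. In spring the counts were 1 and 1, where 4.19% and 2.52% of all probe sets were, with a median of -0.03. The counts of the lists that follow read against the same shares. The largest autumn differences were those of HORMAD2, a protein of meiotic chromosome axes, and GTSF1, a piRNA pathway protein. HORMAD2 averaged 8.79 ± 0.34 in low and 7.26 ± 0.49 in high fertility (SD, n = 2 each), a difference of 1.53 (SE 0.60, limma adjusted p = 1), and GTSF1 differed by 1.40 (SE 1.33). In spring the largest were TDRD6 at -0.70 (SE 0.40) and HORMAD2 at -0.57 (SE 0.49). Without stallions 2, 9 and 10 the list median was 0.14 in autumn and 0 in spring. Of the FKBP family, the peptidyl-prolyl isomerase relatives of FKBP6, 15 of 16 genes were measured, with medians of 0.19 in autumn and -0.07 in spring, and without stallions 2, 9 and 10 of 0.05 and 0.04. Without overlap, 4 were higher and 1 lower in autumn, and 3 were higher and 0 lower in spring. FKBP7 differed by 0.74 (SE 0.94) and FKBP11 by -0.64 (SE 0.29) in autumn, and FKBP2 by 0.50 (SE 0.36) and FKBP7 by -0.39 (SE 0.77) in spring.

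Around PLCZ1, the list of egg activation and perinuclear theca genes had 21 of 25 measured. In autumn 9 of them were higher in low fertility without overlap and 1 lower (18.1% and 10.6% of all probe sets), with a median of 0.41, and in spring 0 and 0, with a median of -0.06. SPATA16, an acrosome formation gene, averaged 6.94 ± 0.14 in low and 5.73 ± 0.06 in high fertility in autumn (SD, n = 2 each), a difference of 1.21 (SE 0.48, limma adjusted p = 1). ACTL7A, an actin-like protein of the sperm head, differed by 1.19 (SE 0.82) there. In spring PICK1 differed by 0.70 (SE 0.55) and the actin capping subunit gene CAPZB by -0.47 (SE 0.72). Without stallions 2, 9 and 10 the list median was 0.17 in autumn and -0.19 in spring. Of other phospholipases C and IP3 receptors, the channels that release calcium, 19 of 20 were measured, with medians of 0.10 in autumn and 0.17 in spring. The autumn median turned to -0.11 without stallions 2, 9 and 10 (-0.05 over all probe sets). There 6 of 19 were higher in low fertility (13505 of 30559 probe sets). The spring median was then 0.17. Without overlap, 5 were higher and 3 lower in autumn, and 1 was higher and 0 lower in spring. PLCE1 differed by 1.34 (SE 0.56) and PLCXD3 by 0.85 (SE 0.25, unadjusted p = 0.00766, limma adjusted p = 1) in autumn. PLCE1 stood at 6.32 and 6.33 in low-fertility stallions there, against 4, the lowest value deposited, and 5.97 in high-fertility stallions. The size of its difference thus depends on a value at this floor. PLCXD3 stood at 5.83 and 5.88 in low-fertility stallions, against 4.94 and 5.07 in high-fertility stallions. In spring PLCD3 differed by 0.60 (SE 0.25) and PLCG2 by 0.43 (SE 0.54).

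Around SPATA1, the list of intraflagellar transport and acrosome shaping genes, which move cargo along microtubules while tail and acrosome form, had 27 of 34 measured. Its median was 0.14 in autumn, with 19 of 27 higher in low fertility (60.6% of all probe sets). In spring it was -0.21, with 6 of 27 higher (52.8% of all probe sets). Without overlap, 6 were higher and 1 lower in autumn, and 0 were higher and 2 lower in spring. TRIP11, a Golgi tether, differed by 0.90 (SE 0.40) and TRAF3IP1 by -0.74 (SE 0.55) in autumn, and IFT25 by -0.63 (SE 0.36) and CLUAP1 by 0.49 (SE 0.74) in spring. Without stallions 2, 9 and 10 the medians were -0.08 and -0.18. Around ACE, 16 of 21 genes of angiotensin and peptide processing were measured, with medians of 0.20 in autumn and -0.09 in spring, and without stallions 2, 9 and 10 of -0.07 and -0.03. Without overlap, 4 were higher and 0 lower in autumn, and 1 was higher and 3 lower in spring. In spring THOP1, a peptidase that cleaves angiotensin and other short peptides, stood at 6.39 to 6.71 in low-fertility stallions, against 6.05 to 6.08 in high-fertility stallions. Its difference of 0.53 (SE 0.17, unadjusted p = 0.0119) did not pass (limma adjusted p = 1), and it was -0.11 (SE 0.21) in autumn. KNG1, the kininogen gene, differed by -0.43 (SE 0.20) in spring, while in autumn PREP differed by 0.45 (SE 0.51) and LNPEP by 0.41 (SE 0.66). Of 23 genes on the list of sperm surface maturation 12 were measured, with medians of 0.15 in autumn and 0.06 in spring, and without stallions 2, 9 and 10 of 0.07 and -0.05. These 12 include GPI, which encodes a glycolysis enzyme. Without overlap, 1 was higher and 2 lower in autumn, and 0 were either in spring. CALR3, a testis calreticulin, differed by -1.08 (SE 0.77) and PRSS37 by 1.07 (SE 1.34) in autumn, and ADAM2 by 0.61 (SE 0.69) and CMTM2 by -0.49 (SE 0.70) in spring.

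Around INHBA, 22 of 23 genes on the activin and inhibin list were measured, with medians of 0.11 in autumn and -0.06 in spring. Besides the hormone subunits, this list holds their receptors and antagonists, SMAD genes, and receptors for gonadotropins and their releasing hormone. The autumn median turned to -0.05 without stallions 2, 9 and 10, where that of all probe sets also turned to -0.05. The spring median of the list was then -0.08. Without overlap, 3 were higher and 1 lower in autumn, and 1 was higher and 1 lower in spring. The alpha subunit gene INHA, which turns activin subunits into inhibin, differed by 0.05 (SE 0.57) in autumn and -0.22 (SE 0.47) in spring. In spring INHBE, another beta subunit gene, averaged 7.56 ± 0.17 in low and 7.06 ± 0.30 in high fertility (SD, n = 3 each), a difference of 0.50 (SE 0.24, limma adjusted p = 1). FST, which encodes the activin antagonist follistatin, averaged 6.50 ± 0.30 in low and 6.98 ± 0.23 in high fertility, a difference of -0.48 (SE 0.22, limma adjusted p = 1). Both overlapped between the classes. In autumn the follistatin-like genes FSTL3 and FSTL1 differed by 0.56 (SE 0.54) and 0.38 (SE 0.34). Of 6 other genes studied in stallion fertility 5 were measured, and none had separate groups in either season, with medians of 0.01 in autumn and -0.02 in spring, and without stallions 2, 9 and 10 of -0.22 and 0.08. The largest autumn difference among these 5 was that of SPA17, a sperm protein that is also on the marker list, at 1.18 (SE 0.77). SPA17 stood at 10.20 and 10.45 in low-fertility stallions there, against 7.97 and 10.33 in high-fertility stallions. The largest in spring was that of CRISP3, a secreted protein of the male tract, at -0.75 (SE 0.72). CRISP3 ran from 4.54 to 5.17 in spring low-fertility stallions and from 4.25 to 7.52 (SD 1.74) in spring high-fertility stallions. These last 2, like INHA, fall outside the rule for naming and were chosen after their values were seen.

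**Figure D4:**
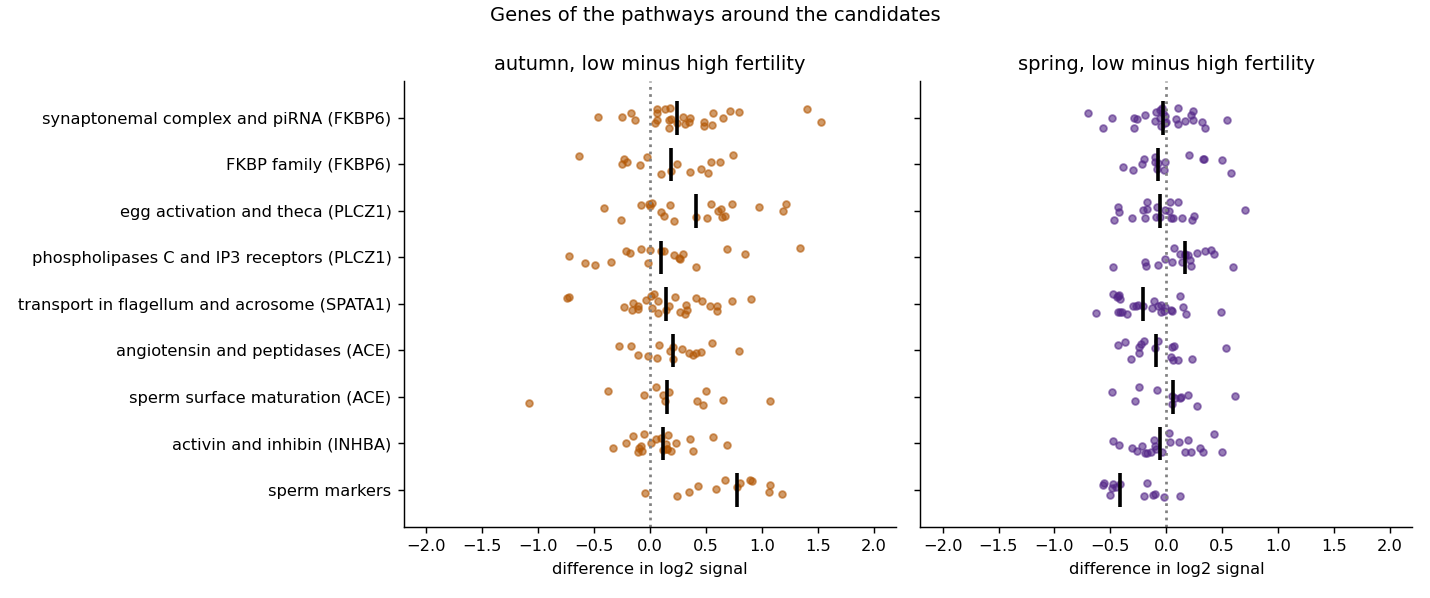
Low minus high difference in log2 signal of each measured gene in 8 lists around the candidates and in the sperm markers, in autumn and in spring. Points are genes and bars are list medians. In autumn the sperm markers have a median of 0.78 and the theca list 0.41, and in spring these medians are -0.41 and -0.06.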

How the data were processed

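RNA of sperm from 10 stallions was measured on 1 array each, and each column of the table is 1 stallion. The log2 signals are used as deposited by the authors. Software listed in the submitters' processing notes was Affymetrix Expression Console 1.1 and GCOS 1.1.1, with no roles. No source used here says how signals were summarised, corrected or scaled. The number of arrays limits the precision. Of 30559 probe sets, 16789 had 1 symbol, 343 several and 13427 none listed, and symbols can be old. No filter on low values was used.

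With all 10 arrays, 4 group means were estimated in limma 3.58.1 in R 4.3.3, with eBayes moderation (6 residual and 2.96 prior degrees of freedom), two-sided tests and Benjamini-Hochberg adjustment over all probe sets. Differences are low minus high fertility. The fit was tested on simulated data.

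The genes and lists were chosen with earlier results of these data known. Named besides the 5 genes were, per gene, its 3 most similar genes and, per list around it, the 2 with the largest difference in each season among those with a mean of at least 5. Where a gene had several probe sets, that with the highest mean was used. Alternatives were quantile normalisation, median centring, a minimum mean of 5, no moderation, no interaction term, 1 season alone, stallion 9 in autumn, each stallion left out, stallions 2, 9 and 10 left out and, added later, the sperm marker mean as a covariate.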

Additional observations from a re-analysis of the deposited data

How the results depend on the processing

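None of the 5 genes passed in any of 375 recomputed differences (20 results under all alternatives), and 323 kept their sign, while 52 turned. The cause of these turns was not tested. All adjusted p are from limma and lay between 0.707 and 1. Each gene had 1 probe set, so averaging probe sets changed nothing. Nor does the estimate change without moderation, under the minimum mean of 5 or with 1 season alone. A difference within 1 season cannot change when a stallion of the other season is left out. The 323 thus include differences that could not turn. The low minus high differences of FKBP6 and INHBA in spring, of FKBP6 averaged over seasons and the interaction of INHBA kept their sign throughout, between 0.33 and 0.66, 0.23 and 0.49, 0.22 and 0.60, and 0.10 and 0.82.

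Leaving out 1 stallion at a time gave, for FKBP6, -0.03 to 0.73 in autumn (turned without stallion 5) and -0.27 to 0.49 for the interaction (without 1, 6 or 7). For PLCZ1 it gave -0.34 to 0.89 in autumn (2 or 6), -0.86 to 1.01 in spring (8 or 9), -0.29 to 0.64 averaged (2, 6, 8 or 9) and -1.14 to 0.73 for the interaction (2, 3, 6 or 10). For SPATA1 it gave -0.32 to 0.48 in autumn (2), -1.11 to 0.26 in spring (10), -0.51 to 0.17 averaged (1 or 10) and -1.19 to 0.18 for the interaction (10). For ACE it gave -0.54 to 0.45 in autumn (1 or 5), -0.82 to 0.12 in spring (10), -0.44 to 0.05 averaged (1 or 10) and -0.81 to 0.18 for the interaction (2 or 10). For INHBA it gave -0.42 to 0.20 in autumn (1 or 6) and -0.05 to 0.26 averaged (2 or 5).

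With stallion 9 in autumn, the interaction of FKBP6 was -0.08, PLCZ1 was -0.76 in spring and -0.06 averaged, ACE was 0.24 in autumn and INHBA 0.13 in autumn. Without stallions 2, 9 and 10, PLCZ1 was -0.34 in autumn, -0.07 averaged and 0.53 for the interaction, SPATA1 was -0.32 in autumn and 0.30 for the interaction, the interaction of ACE was 0.20 and INHBA averaged -0.01. SPATA1 in autumn was -0.03 after quantile normalisation and -0.01 after median centring. With the sperm marker mean as a covariate, PLCZ1 was -0.77 in autumn (SE 0.36), -0.12 averaged (SE 0.23) and 1.30 for the interaction (SE 0.47). Without the covariate that interaction was -0.22 (SE 1.55). SPATA1 was then -0.53 in autumn (SE 0.35) and 0.44 for the interaction (SE 0.45) with the covariate. The interaction of ACE was 0.50 (SE 0.32) with it, and the average of ACE kept its sign, at -0.35 (SE 0.15).

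Over all probe sets, the count past the threshold in autumn (1) was 2 without moderation, 0 without stallions 2, 9 and 10, 0 with the autumn arrays alone, and 0 (without stallion 5) to 24 (without stallion 6) with 1 stallion left out. It was 2 without stallion 1 or 8. The count for the average (1) was 0 without moderation, without the interaction term or without stallions 2, 9 and 10, and 0 (without stallion 2, 4, 5 or 9) to 13 (without stallion 6) with 1 left out. That for the interaction (1) was 0 without stallions 2, 9 and 10, and 0 (without stallion 2, 3, 4, 5, 9 or 10) to 15 (without stallion 6) with 1 left out. Where an autumn group is left with 1 array, that array is assumed to vary like the other groups. The count in spring was 0 under all alternatives run. Of the 3 most similar genes, all 3 stayed for FKBP6 and PLCZ1 and 2 of 3 for SPATA1, ACE and INHBA after median centring. No paired analysis was possible because the labels give each stallion its own number and tie no stallions to each other.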
